A study of Mus musculus with 2 samples.

Results

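Chemokine receptors are G protein-coupled receptors that let leukocytes follow chemokines into and through tissues. The 7 receptors described here, Cxcr3, Cxcr4, Cxcr5, Cxcr6, Ccr2, Ccr6 and Ccr9, were picked by name from the deposited count table of hepatic immune cells, and all 7 were among its 13528 genes. The study set out to describe the immune cells, and above all the CD8+ T cells, in the liver of a mouse model of primary biliary cholangitis (PBC), an autoimmune disease in which T cells injure the small bile ducts. CD45+ cells were sorted from the liver and captured in 2 libraries on the BD Rhapsody system, which reads out the transcripts and antibody-linked oligonucleotides of each cell as unique molecular identifiers (UMIs). In the first, dnTGFβRII mice, called TG, shared the pool with IFN-γ ARE-Del-/- animals. In the second, wild type (WT) mice shared it with P40-/-IL-2Ra-/- animals. The deposited cell table names 4647 TG cells of the first pool and 7282 WT cells of the second, and the cells of the remaining genotypes were not analysed here.

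All mice were on the C57BL/6 strain, and the labels give an age of 10 weeks, while the study's methods give a slightly younger one. TG mice carry a type II TGF-β receptor made dominant negative and expressed from the Cd4 promoter, so that TGF-β signalling is impaired in T cells, whereas WT mice carry no transgene. How many mice made up each pool was not given in the sources used here, and a cell could not be traced to a single mouse. Each genotype was therefore 1 sample in 1 capture library, no test between genotypes could be made, and the effects of genotype and of capture library cannot be told apart. Levels are given as CPM, the receptor's UMIs per 1000000 UMIs of a summed set of cells, with exact 95% Poisson intervals in parentheses. Ratios of TG over WT are log2 values with 95% intervals from an exact binomial law conditional on the summed counts, and shares of cells carry Clopper-Pearson intervals of the same level. These intervals cover counting error only.

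As background, CXCR3 binds the interferon-induced chemokines CXCL9, CXCL10 and CXCL11 and guides effector T cells, while CXCR6 binds CXCL16, a chemokine displayed by liver sinusoidal cells, and keeps NKT cells and resident T cells in the liver. CCR2 binds CCL2 and brings monocytes out of the bone marrow, CCR6 binds CCL20 and marks IL-17-producing T cells and B cells, and CCR9 binds CCL25 of the small intestine and thymus and is also found on plasmacytoid dendritic cells. CXCR5 binds CXCL13 and takes B cells into follicles, and CXCR4 binds CXCL12 and is found on most leukocytes. All of them signal through inhibitory G proteins.

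The genes of 4 of the receptors lie on mouse chromosome 9 of the GRCm38 build. Cxcr5 lies at chr9:44511787-44561877 on the minus strand. Ccr9 (chr9:123678439-123784330), Cxcr6 (chr9:123806475-123811760) and Ccr2 (chr9:124101950-124113557) are neighbours on the plus strand, with 22.1 kb between the end of Ccr9 and the start of Cxcr6 and 290.2 kb between the end of Cxcr6 and the start of Ccr2. Cxcr3 lies at chrX:101731535-101734269 on the minus strand, Cxcr4 at chr1:128588199-128592293 on the minus strand and Ccr6 at chr17:8236043-8257141 on the plus strand. These spans are those of the GENCODE annotation, whose widest transcript can start elsewhere than the RefSeq gene. RefSeq promoter windows, from 250 bases before to 50 bases after the RefSeq start of a gene, were matched by symbol for 6 of the 7 receptors in build GRCm38.p6. The window of Ccr9 lies inside the GENCODE span of the gene, and that of Cxcr3 spans a RefSeq start inside it. The windows of Cxcr3, Cxcr6 and Ccr9 are printed because the 3 receptors were all past 2-fold higher in TG CD4 T cells. Capitals mark 2 of the motifs searched on both strands. One is the RUNX core ACCACA. The other is the E-box CAGGTG, which reads as its reverse complement when found on the opposite strand, as in the window of Cxcr3.
Cxcr3 chrX:101734098-101734397: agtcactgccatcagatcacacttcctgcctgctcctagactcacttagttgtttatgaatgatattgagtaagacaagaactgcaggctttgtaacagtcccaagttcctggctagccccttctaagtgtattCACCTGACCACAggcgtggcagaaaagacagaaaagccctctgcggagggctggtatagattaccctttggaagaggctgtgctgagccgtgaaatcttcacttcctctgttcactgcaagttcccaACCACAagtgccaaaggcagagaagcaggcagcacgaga
Cxcr6 chr9:123806227-123806526: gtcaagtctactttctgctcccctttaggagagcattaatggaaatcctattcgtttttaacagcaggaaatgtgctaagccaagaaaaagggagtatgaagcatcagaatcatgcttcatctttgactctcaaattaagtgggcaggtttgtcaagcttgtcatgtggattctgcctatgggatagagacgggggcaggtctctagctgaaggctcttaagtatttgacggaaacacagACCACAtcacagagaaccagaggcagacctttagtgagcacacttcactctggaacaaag
Ccr9 chr9:123766961-123767260: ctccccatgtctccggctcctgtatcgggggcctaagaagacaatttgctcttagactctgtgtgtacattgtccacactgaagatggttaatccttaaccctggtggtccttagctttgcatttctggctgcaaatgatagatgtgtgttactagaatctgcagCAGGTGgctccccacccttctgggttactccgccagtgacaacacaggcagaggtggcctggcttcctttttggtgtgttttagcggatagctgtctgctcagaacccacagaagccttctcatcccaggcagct
The Cxcr3 window, read on the minus strand, held CACCTG at -116 and ACCACA at -110 and +11, counted from the RefSeq start. The Cxcr6 window held ACCACA at -10, and the Ccr9 window held CAGGTG at -85, both read on the plus strand. Of 32851 mouse promoter windows of the same length, 16.8% held the RUNX core and 20.2% the E-box on either strand. None of the 3 windows held the letters of the T-box element AGGTGT (13.7% of all windows) or the TATA box TATAAA (13.6%). These matches are a description of the sequence and were not linked to any measurement.

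The TG cells held 18498477 UMIs and the WT cells 22216379, with medians of 3298 and 2654 UMIs per cell. The authors' table gives 14 cell types and 30 clusters, and 9 types held at least 50 cells of each genotype. NKT cells made up 9.6% of TG and 30.7% of WT cells, CD8αβ T cells 21.9% and 11.2%, and CD4 T cells 5.12% and 10.1%. Not all names were borne out by markers. The cells named monocytes (cluster 5) held neutrophil genes, with Csf3r at 2862 CPM in TG against 2960.1 CPM in WT, and little Csf1r (224 and 214 CPM), so they are called cluster 5 here. The cells named immature B (cluster 10) held less of the immature marker Vpreb3 (17.2 and 44.2 CPM) than the mature B cells did (142 and 217 CPM), and they are called cluster 10. Among the cells named NK, clusters 3 and 11 held the T cell gene Cd3e at 1608 and 1401 CPM in TG against 122 and 129.6 CPM in WT, whereas NK cluster 8 held 133 and 67.5 CPM. The cells named CD8αα (cluster 2) held the γδ T cell gene Trdc in 4.88% of TG and 42.3% of WT cells, at 95.1 CPM against 855 CPM, and γδ T cells held it at 1719.6 and 1393 CPM. The cells named NKT held the NKT genes Zbtb16 and Klrb1c at 43 and 439 CPM in TG against 107 and 784 CPM in WT, and Cd4 in 75.8% of TG and 30.7% of WT cells. The cells named macrophages lay mostly in cluster 15 (89 of 109 TG and 158 of 261 WT cells). That cluster held the monocyte genes Ly6c2 (963 and 1018 CPM) and S100a4 (753 and 600 CPM), and the name macrophages is kept here. Cluster 7, named CD8αβ, held Cd4 in 56.7% of TG and 40.2% of WT cells, Cd8a in 48% and 31.8% and Cd8b1 in 35.4% and 32.6%. It gave 2418734 of the 5302551 TG UMIs of the cells named CD8αβ, and that name is kept here. The part of these markers in the CD8αα, CD8αβ, NKT and macrophage values below was not tested. Cells with at least 2 UMIs of marker genes of 2 lineages (B, T or NK, and myeloid) made up 35.8% of TG and 11% of WT cells, and no doublet caller was run. Markers of other lineages were widely spread in TG. In NKT cluster 0, S100a9 was found in 40.4% of TG and 14.8% of WT cells and Cd79a in 20.1% and 4.18%. Whether the cells called cells of 2 lineages below are true doublets was not tested. The libraries shared 267 cell barcodes, 36 of them among the cells named TG or WT.

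Some of the receptors shared a leading cell type and others did not. Among the 9 cell types with at least 50 cells of each genotype, Cxcr3, Cxcr6 and Ccr9 were highest in NKT cells, Ccr2 in macrophages, Ccr6 in mature B cells, Cxcr5 in cluster 10 and Cxcr4 in cluster 5, with both genotypes together. The same cell type led for all 7 receptors when every cell had equal weight, when cells of 2 lineages were left out and when each cell was thinned to 1000 UMIs. Beyond those 9 types, γδ T cells (17 TG and 192 WT cells) reached the highest level of Ccr2 and Ccr6 and, in WT, of Cxcr6, and plasmacytoid dendritic cells (pDC; 46 and 219 cells) the highest level of Ccr9.

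**Figure D1:**
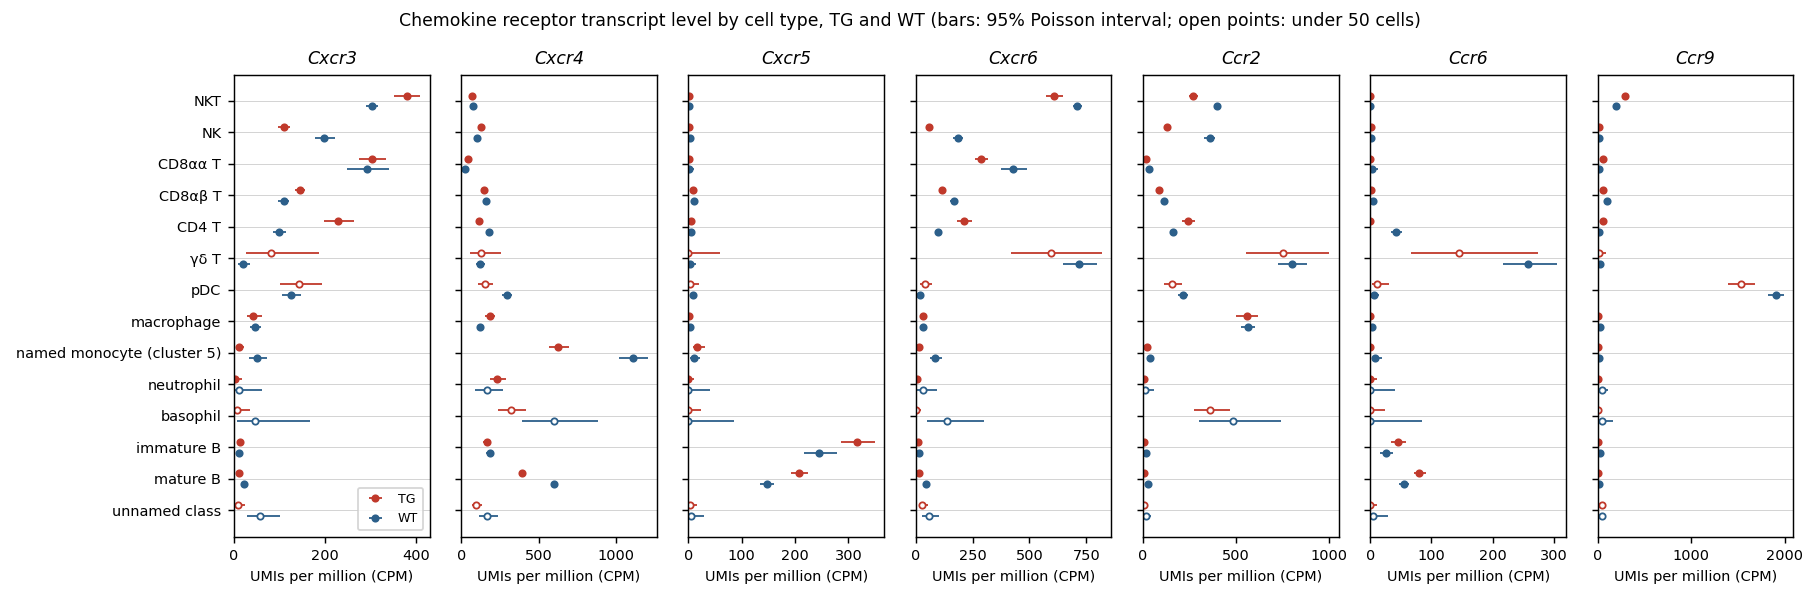
Level of each receptor in 14 cell types. Each panel is 1 receptor, the horizontal axis gives counts per 1000000 UMIs of the summed cells (CPM), red points are TG and blue points WT, bars are exact 95% Poisson intervals, and open points are sets of fewer than 50 cells. Cxcr3, Cxcr6 and Ccr2 spread over NKT, T and NK cells, Cxcr5 and Ccr6 sit in B cells with Ccr6 also in γδ T cells, Ccr9 peaks in pDC at 1532 CPM in TG against 1905 CPM in WT, and Cxcr4 peaks in cluster 5.

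The TG and WT levels were compared in each of the 9 cell types wherever a receptor had at least 20 UMIs over both genotypes, which gave 51 pairs of a receptor and a cell type. Of these, 17 differed by 2-fold or more, 4 of them higher in TG and 13 lower. Without cells of 2 lineages 10 of 42 pairs did, 5 higher and 5 lower, a setting for which the share over all genes was not counted. In CD4 T cells 4 of 6 receptors passed 2-fold, beside 8.63% of all genes. In mature B cells 3 of 7 did (all genes 4.69%), in cluster 10 2 of 7 (6%), in NK cells 2 of 5 (8.15%), in CD8αα T cells 2 of 5 (7.77%) and in cluster 5 2 of 4 (10.5%). In macrophages 1 of 5 receptors (all genes 9.13%) and in CD8αβ T cells 1 of 7 (7.02%) passed. None of 5 did in NKT cells, beside 6.54% of all genes. Each of these shares over all genes counts changes of 2-fold or more in either direction among genes with at least 20 UMIs in that cell type. Most of the pairs past 2-fold were low in the cell type concerned, and among the 26 pairs in which the receptor passed 100 CPM in TG or WT, a threshold chosen after seeing the data, 4 were past 2-fold, beside 3.27% of all pairs of a gene and a cell type at that level. These were Cxcr3 and Cxcr6 in CD4 T cells and Cxcr6 and Ccr2 in NK cells. With clusters given the same weights in both genotypes, only Cxcr6 in NK cells stayed past 2-fold, at a log2 ratio of -1.31. The CD4 values became 0.65 and 0.69 and that of Ccr2 in NK cells -0.83.

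**Figure D2:**
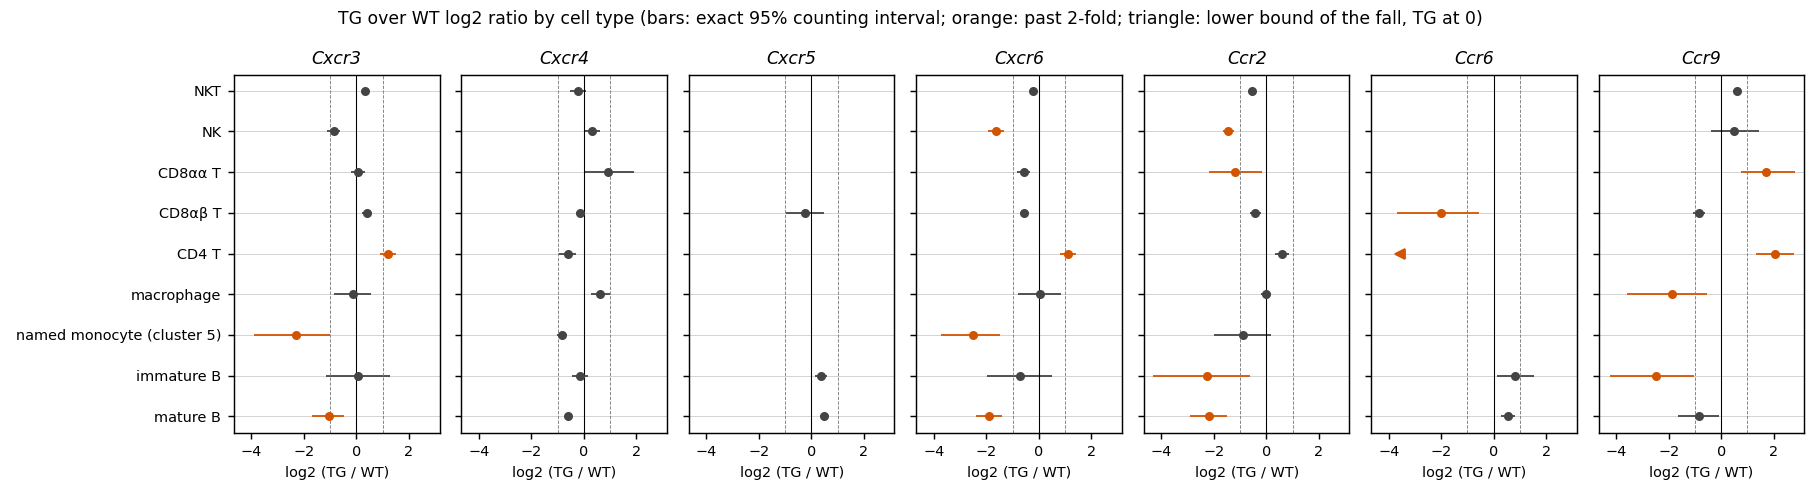
Log2 ratio of TG over WT for each receptor in the 9 cell types with at least 50 cells of each genotype. Points are ratios of summed counts, bars exact 95% intervals, orange points lie past 2-fold (dashed lines at 1 and -1) and the triangle is a bound for Ccr6 in CD4 T cells, where TG held 0 UMIs. Ccr9, Cxcr3 and Cxcr6 in CD4 T cells and Ccr9 in CD8αα T cells sit past the upper line, and the other orange points sit past the lower line.

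Cxcr3 was highest in NKT cells of both genotypes, at 379 CPM (351 to 409) in TG and 302 CPM (289 to 315) in WT, a log2 ratio of 0.33 (0.20 to 0.46). CD8αα T cells came next, at 302 CPM (273 to 333) in TG and 291 CPM (248 to 339.6) in WT. In TG the intervals of NKT, CD8αα, CD4 and CD8αβ T cells lay apart in that order, whereas in WT those of NKT and CD8αα T cells overlapped and NK cells followed at 198 CPM. The genotypes thus differed in the place of CD4 T cells. Their Cxcr3 level was 228 CPM (197 to 263) in TG and 99.1 CPM (85.6 to 114) in WT, a log2 ratio of 1.2 (0.91 to 1.5). With CD4 clusters given the same weights in both genotypes it became 0.65, and inside CD4 cluster 9, which held the memory marker Cd44 at 410.1 and 428 CPM, it was 0.47 (0.11 to 0.83), from 265 CPM in TG and 191 CPM in WT. Cluster 6, which held the naive T cell genes Lef1 and Ccr7, made up 58 of 238 CD4 T cells in TG and 397 of 734 in WT.

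A UMI of Cxcr3 was found in 69.5% of TG and 54.3% of WT NKT cells. Across cells thinned to 1000 UMIs the shares were 29.6% (25.4 to 34.1) and 26.7% (24.9 to 28.6), with overlapping intervals, and the median depths behind the raw shares were 3852 and 2860.5 UMIs. Neutrophils, which should lack Cxcr3, held it in 1.85% of 54 TG cells with a median of 6038 UMIs. Mature B cells held it in 2.62% of TG and 3.95% of WT cells. The mature B level of 10.4 and 21.7 CPM (log2 ratio -1.06) lay in WT mostly in cluster 17, in which 96.6% of TG and 97.4% of WT cells held markers of 2 lineages. Without that cluster the levels were 6.92 and 6.28 CPM and the ratio 0.14, from 40 UMIs.

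Among CD8αβ T cells, Cxcr3 differed in opposite directions in different clusters although the whole type differed little (log2 ratio 0.41 (0.22 to 0.60)). Cluster 4, which held the naive genes Lef1 and Ccr7, stood at 94.2 CPM (73.1 to 119) in TG and 8.58 CPM (3.92 to 16.3) in WT, a log2 ratio of 3.46 (2.45 to 4.65). The memory marker Cd44 stood at 149.6 CPM in TG against 26.7 CPM in WT in the same cluster. Cluster 12, which was rich in the effector genes Gzma (9724 and 1188 CPM) and Cx3cr1 (1026 and 237 CPM), went the other way, from 205 CPM in WT to 53.1 CPM in TG, a log2 ratio of -1.95 (-2.61 to -1.30). Cluster 18, which held the residency gene Itga1, had the highest CD8αβ level at 491 CPM in TG against 472 CPM in WT. In the cells named NK, Cxcr3 stood at 109 CPM (95.6 to 123) in TG and 198 CPM (177 to 221) in WT, a log2 ratio of -0.87. In NK cluster 8, which held little Cd3e in both genotypes, the levels were 30.1 and 73 CPM and the ratio -1.28 (-2.16 to -0.47).

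**Figure D3:**
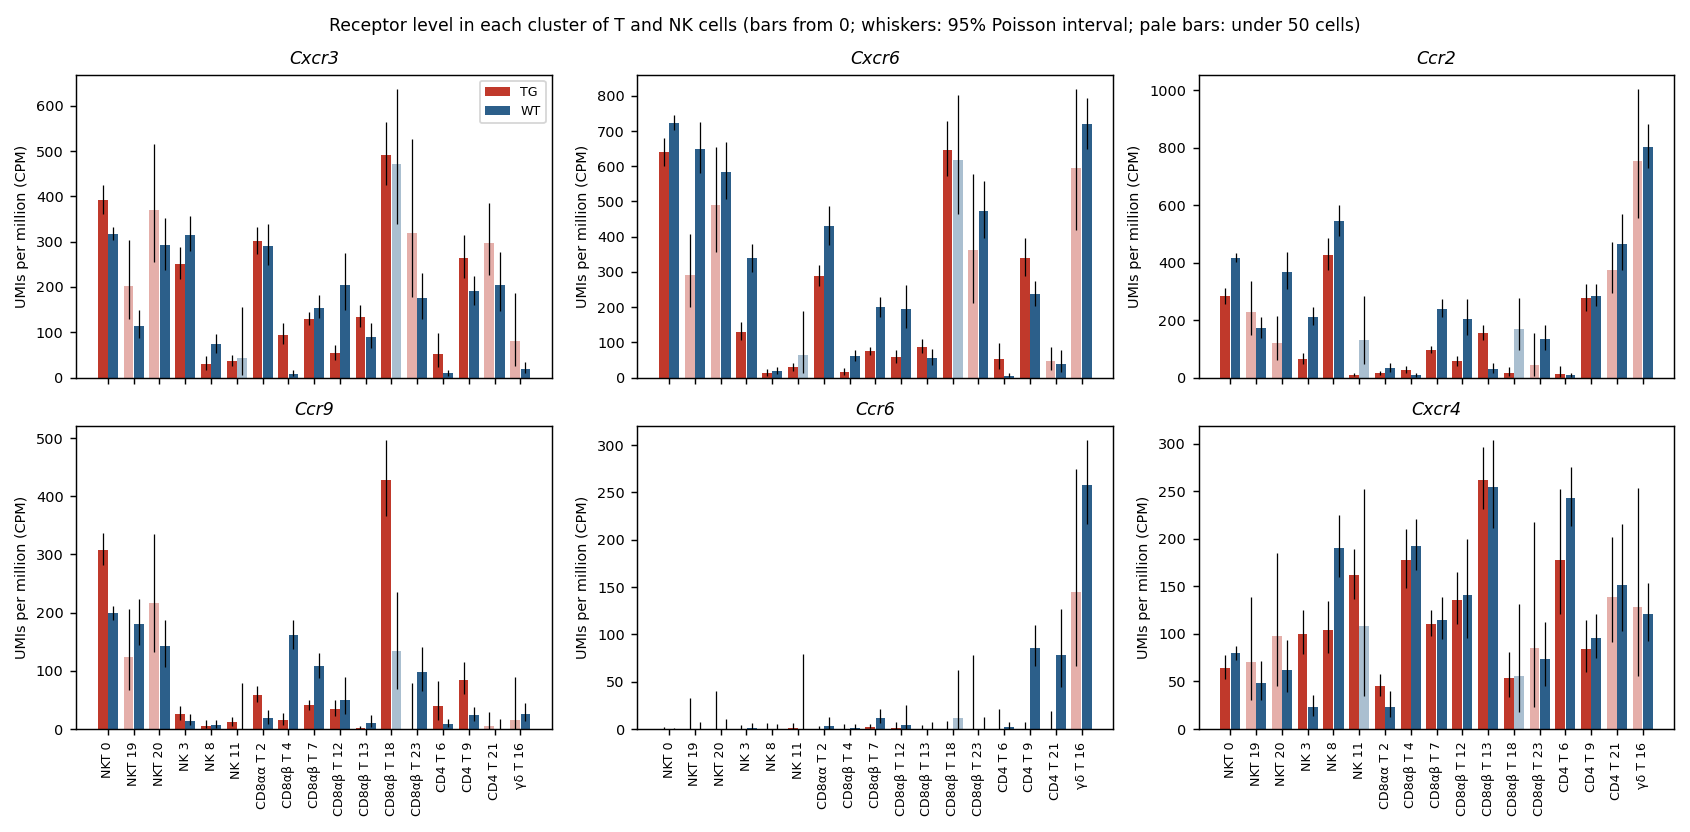
Levels of 6 receptors in the clusters of NKT, NK and T cells. The vertical axes give CPM, red bars are TG and blue bars WT, error bars are exact 95% Poisson intervals and pale bars are sets of fewer than 50 cells. In CD8αβ cluster 4 Cxcr3 is high in TG and Ccr9 in WT, in CD8αβ cluster 18 Cxcr3 is high in both genotypes and Ccr9 higher in TG, and Ccr6 appears in CD4 clusters 9 and 21 of WT and in γδ T cluster 16.

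Cxcr6, the receptor for CXCL16, was shared by NKT and γδ T cells. NKT cells stood at 610.1 CPM (574 to 648) in TG and 711 CPM (691 to 732) in WT, a log2 ratio of -0.22 (-0.32 to -0.12). γδ T cells stood at 595 CPM (419 to 819.6) and 719 CPM (649 to 795), and the intervals of the 2 cell types overlapped in both genotypes. CD8αα T cells came next and apart from them, at 288 CPM in TG against 429 CPM in WT (log2 ratio -0.57 (-0.81 to -0.33)), beside the lower Trdc of the TG cells. NKT cells, a smaller part of the TG than of the WT cells, gave 42.7% of all Cxcr6 UMIs in TG and 70.9% in WT. After thinning to 1000 UMIs per cell, Cxcr6 was found in 42.2% (37.5 to 46.9) of TG and 47.9% (45.8 to 50) of WT NKT cells. Mature B cells, which should lack it, held it in 1.31% and 2.14% at the same depth, and in 3.18% and 5.62% at their own median depths of 2923 and 2044 UMIs. Of their 169 WT UMIs, 149 lay in cluster 17, rich in cells of 2 lineages. Without that cluster the mature B levels were 7.87 CPM in TG and 6.98 CPM in WT.

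In CD4 T cells Cxcr6 differed as Cxcr3 did, from 97.1 CPM (83.7 to 112) in WT to 212 CPM (182 to 245) in TG, a log2 ratio of 1.13 (0.82 to 1.43) that became 0.69 with equal cluster weights. Within cluster 9 the levels were 339 CPM in TG and 237 CPM in WT (0.52 (0.20 to 0.83)). In the cells named NK it was lower in TG, at 60 CPM (50.4 to 71) against 186 CPM (165 to 208), a log2 ratio of -1.63 (-1.93 to -1.33). The NK signal sat in cluster 3, at 131 CPM in TG against 338 CPM in WT, and this is a cluster that held Cd3e in TG but hardly in WT. NK cluster 8 held little, at 12.4 and 17.9 CPM.

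Among CD8αβ clusters Cxcr6 was highest in cluster 18, at 647 CPM (571 to 729) in TG and 617 CPM (465 to 804) in WT, which overlap. It was lower in TG in the Gzma-rich cluster 12 (57.2 against 196 CPM, log2 ratio -1.78 (-2.42 to -1.13)), in cluster 7 (75.7 against 199 CPM, -1.40 (-1.70 to -1.10)), which held the proliferation gene Mki67, and in the Lef1-rich cluster 4 (15.2 against 60.1 CPM, -1.98 (-3.05 to -1.04)). The direction in cluster 4 was thus opposite to that of Cxcr3 in the same cluster. Many cells of cluster 7 also held Cd4 (56.7% in TG and 40.2% in WT). A further pair of ratios past 2-fold, -2.52 in cluster 5 and -1.88 in mature B cells, became 0.03 and 0.32 without the cells of 2 lineages. Cells of 2 lineages made up 24.5% of TG and 12.4% of WT cells in cluster 5, and 35.8% and 20.7% of mature B cells.

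Ccr2, the receptor for CCL2, hardly differed between genotypes in the cells named macrophages, the type in which it led. Its level there was 559 CPM (501 to 621) in TG and 564 CPM (526 to 605) in WT, a log2 ratio of -0.01 (-0.20 to 0.17). Within that class it stood at 552 and 652 CPM in cluster 15, which held the monocyte genes Ly6c2 and S100a4. In cluster 22 it stood at 577 and 606 CPM. Cluster 5, named monocytes but rich in neutrophil genes, held it at only 21.7 and 40.2 CPM. γδ T cells were higher than macrophages in WT, at 802 CPM (728 to 882), while the 17 TG γδ T cells stood at 755 CPM (555 to 1004), an interval that overlaps with macrophages. With 1000 UMIs in every cell, 30.3% (21.8 to 39.8) of TG and 33.3% (27.6 to 39.4) of WT macrophages held Ccr2, against 0.375% and 2.07% of mature B cells, which should lack it. Of the 106 mature B UMIs in WT, 82 lay in cluster 17, rich in cells of 2 lineages. Without that cluster the mature B levels were 4.4 CPM in TG and 8.38 CPM in WT.

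In lymphocytes Ccr2 was mostly lower in TG. NKT cells stood at 271 CPM (247 to 296) in TG and 397 CPM (382 to 413) in WT (log2 ratio -0.55 (-0.70 to -0.41)). The cells named NK stood at 132 CPM (117 to 148) in TG and 359 CPM (331 to 389.9) in WT, a log2 ratio of -1.45 (-1.65 to -1.24) that became -0.83 with equal cluster weights. In NK cluster 8, which held most of the NK signal, the levels were 428 and 544 CPM (-0.35 (-0.58 to -0.11)). CD4 T cells went the other way within 2-fold, at 244 CPM in TG against 161 CPM in WT (0.60 (0.34 to 0.85)), and Ccr2 within CD4 cluster 9 hardly differed (-0.05 (-0.38 to 0.27)). The regulatory CD4 cluster 21, marked by Foxp3, held 374 CPM in TG and 464 CPM in WT.

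CD8αβ T cells again held opposite differences of Ccr2 beneath a type-wide log2 ratio of -0.41 (-0.62 to -0.21). Cluster 13, which held Lef1 at 240.5 and 339 CPM, stood at 155 CPM (131 to 182) in TG and 31 CPM (17.4 to 51.2) in WT, a log2 ratio of 2.32 (1.55 to 3.19). Clusters 7 and 12 were lower in TG, at 95.5 against 239.8 CPM and 55.8 against 205 CPM. Cluster 18 held 7 UMIs (17 CPM) in TG and 15 UMIs (168 CPM) in only 37 WT cells. The ratios past 2-fold in CD8αα T cells (-1.19), cluster 10 (-2.26) and mature B cells (-2.17) rested on levels of at most 32.7 CPM in either genotype. Without the cells of 2 lineages the ratio was -0.34 in mature B cells and -0.89 in CD8αα T cells, where it was -0.40 at 1000 UMIs per cell and -0.97 with equal weight per cell.

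Ccr9, the receptor for CCL25, marked pDC, and it was among the pDC markers used to check that name. Its level there was 1532 CPM (1391 to 1684) in TG and 1905 CPM (1822 to 1990.1) in WT, and a UMI was found in 100% of 46 and 99.1% of 219 cells. NKT cells came second and apart from every other type in both genotypes, at 292 CPM (267 to 318) in TG and 195 CPM (184.4 to 206) in WT, a log2 ratio of 0.58 (0.43 to 0.73). At 1000 UMIs per cell the shares of NKT cells with Ccr9 were 15.5% (12.2 to 19.2) and 14.7% (13.2 to 16.2), which overlap, against 0.468% and 0.87% of mature B cells, taken as background. Thus the higher TG level of NKT cells did not show as a larger share of cells at equal depth. pDC gave 29.3% of all Ccr9 UMIs in TG and 52.4% in WT.

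In T cells Ccr9 was higher in TG among CD4 and CD8αα T cells and lower among CD8αβ T cells. CD4 T cells stood at 56.8 CPM (41.9 to 75.3) in TG and 13.9 CPM (9.14 to 20.2) in WT, a log2 ratio of 2.03 (1.33 to 2.77), of which 3 cells gave 41.7% of the TG and 37% of the WT UMIs. At 1000 UMIs per cell the CD4 ratio was 1.14. CD8αα T cells stood at 58.9 CPM (46.5 to 73.5) in TG and 18.2 CPM (8.72 to 33.4) in WT, a log2 ratio of 1.70 (0.74 to 2.81), which was 0.66 at 1000 UMIs per cell, again beside the lower Trdc of the TG cells. CD8αβ T cells stood at 58.8 CPM (52.5 to 65.7) in TG and 106 CPM (95.1 to 119) in WT (-0.85 (-1.08 to -0.63)). Beneath that ratio the Lef1-rich cluster 4 went from 161 CPM (138 to 187) in WT to 15.2 CPM (7.61 to 27.3) in TG, a log2 ratio of -3.40 (-4.43 to -2.53). Cluster 7 was lower in TG as well, at 40.9 against 107.6 CPM (-1.39 (-1.81 to -0.98)), from 99 TG and 101 WT UMIs. Cluster 18 went from 135 CPM (69.6 to 235) in 37 WT cells to 428 CPM (367 to 496) in 115 TG cells (1.67 (0.83 to 2.65)). Most of the CD8αβ UMIs of Ccr9 thus lay in the Lef1-rich cluster 4 in WT and in the Itga1-bearing cluster 18 in TG, with 169 of 326 and 176 of 312 UMIs. The ratios in macrophages (-1.88) and cluster 10 (-2.47) came from 5 UMIs in TG in each case, and in WT 3 cells gave 50% and 47.8% of the UMIs. At 1000 UMIs per cell the macrophage ratio was -0.06.

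Ccr6, the receptor for CCL20, had the fewest UMIs of the 7 (344 in TG and 478 in WT). It was held by B cells, by γδ T cells and, in WT alone, by CD4 T cells. In mature B cells it was 80.4 CPM (71.1 to 90.6) in TG and 55.1 CPM (47.7 to 63.3) in WT (log2 ratio 0.54 (0.27 to 0.82)), and in cluster 10 it was 45 and 25.6 CPM (0.82 (0.12 to 1.55)). Across cells thinned to 1000 UMIs the mature B shares were 6.55% (5.14 to 8.21) and 4.95% (3.91 to 6.18), which overlap. NK cells, taken as background, held Ccr6 in 0.132% of TG and 0.163% of WT cells. γδ T cells (cluster 16) stood at 258 CPM (217 to 305) in WT, with a UMI in 43.8% of cells, and at 145 CPM (66.1 to 275) in the 17 TG cells.

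No Ccr6 UMI was found in TG CD4 T cells. The 238 cells gave 0 of 844810 UMIs, where the limit of 3 counts would be 3.55 CPM, and by the same limit 0 of 238 cells allows a share of cells with a UMI of up to 1.26%, which is no limit on the cells that express the gene. WT CD4 T cells held 82 UMIs, 42.1 CPM (33.5 to 52.3), in 7.08% of cells, so that TG, set at the limit of 3 counts, was at least 11.9-fold lower. The exact interval of the log2 ratio, which also takes in the counting error of WT, ended at -3.24. Of the WT UMIs, 64 lay in cluster 9, where the level was 86.1 CPM (66.3 to 109.9) and the interval of the log2 ratio ended at -3.43, with 0 UMIs in 132 TG cells. A further 16 lay in the Foxp3-marked cluster 21, at 78.2 CPM (44.7 to 127) in 16.9% of 65 WT cells, beside 14.7% of cells in cluster 9 and 0 UMIs in the 48 TG cells of cluster 21. Il17a, which encodes the cytokine IL-17A, stood at 36.3 CPM in WT cluster 9 and was set to 0 in every TG cell of the filtered table, while the library file held 18 UMIs of it in the same TG cells. The CD8αβ ratio of -2.01 (-3.68 to -0.54) rested on 6 and 14 UMIs. Of these, 5 in TG and 11 in WT lay in cluster 7, which also held Cd4. The part of cells with Cd4 in this ratio was not tested.

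Cxcr5, the receptor for CXCL13, was a B cell receptor in these libraries. Cluster 10 stood at 317 CPM (286 to 349.9) in TG and 246 CPM (216 to 278) in WT, a log2 ratio of 0.37 (0.13 to 0.60). Mature B cells stood at 207 CPM (192 to 223) and 147 CPM (135 to 160), a log2 ratio of 0.50 (0.33 to 0.66). The B cell intervals lay apart from each other and from every other cell type in both genotypes, the next type being cluster 5 at 16.7 and 9.57 CPM. CD4 T cells, where follicular helper cells would carry Cxcr5, held it at 4.73 and 5.14 CPM, with overlapping intervals. After thinning to 1000 UMIs per cell the share of mature B cells with Cxcr5 was 18.7% (16.4 to 21.2) in TG and 13.8% (12.1 to 15.6) in WT, which lie apart. Those of cluster 10 were 23.8% (18 to 30.5) and 21.8% (16.3 to 28.1), which overlap. NK cells, taken as background, held it in 0.132% and 0.813% of cells at median depths of 2813 and 2473 UMIs.

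Cxcr4, the receptor for CXCL12, was found in every cell type of both genotypes and passed 2-fold in none of the 9 compared. Cluster 5 led at 625 CPM (563 to 692) in TG and 1108 CPM (1019 to 1202) in WT, a log2 ratio of -0.83 (-1.02 to -0.64). Among the 9 types mature B cells followed at 391 CPM (370 to 413) and 601 CPM (576 to 627) (-0.62 (-0.72 to -0.52)). Outside those types basophils stood at 318 and 601 CPM and pDC at 153 and 294 CPM. CD8αα T cells were lowest in both genotypes, at 45.3 CPM (34.6 to 58.3) and 23.6 CPM (12.6 to 40.4). With 1000 UMIs in every cell, 31.8% (29 to 34.7) of TG and 43.4% (40.9 to 46) of WT mature B cells held Cxcr4, which lie apart in the same direction as the levels. No cell type was taken as background for so broad a receptor. Among clusters, NK cluster 3 stood out with 100.1 CPM (79.2 to 125) in TG and 22.8 CPM (13.7 to 35.6) in WT, a log2 ratio of 2.14 (1.40 to 2.94), and it is the cluster in which TG cells held Cd3e. NK cluster 8 went the other way (-0.87 (-1.33 to -0.42)).

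CD184, the protein of Cxcr4, was the only one of the 7 receptors with an antibody among the 49 of the panel. Its median centred log ratio, a natural log of the antibody's count relative to the other antibodies of the cell, was higher in WT in 9 of 9 cell types. The share of the other antibodies for which this held is not given, so the count cannot be set against antibodies in general. NKT cells stood at 0.151 in TG and 0.194 in WT, CD8αα T cells at 0.15 and 0.24 and cluster 5 at 0.298 and 0.322. CD184 made up 0.0804% of all antibody counts in TG and 0.172% in WT, where 3 cells gave 32.6% of the CD184 counts (2.8% in TG). The antibody signal was low, with 6993 counts over 4647 TG cells and a count in only 61.1% of TG and 70.4% of WT cells. The medians therefore rest on very few counts per cell. With that limit, the antibody value was higher in the WT library in each of these types. The transcript was higher in TG in NK cells, CD8αα T cells and macrophages and lower in the other 6 types. WT cells with a UMI of Cxcr4 had a median CD184 ratio of 0.205 and WT cells without one 0.204. The effects of antibody stain, library and genotype on these values cannot be told apart. In WT cluster 5 the share of antibody counts was 1.37%, and 3 cells gave 86.3% of those counts. Neutrophils of TG had the highest median of the sets with at least 50 cells, at 0.523. Over clusters of at least 50 cells the median CD184 ratio and the Cxcr4 level gave a Pearson r of 0.35 in TG (n = 17 clusters) and 0.38 in WT (n = 22), and a Spearman rho of 0.22 and -0.01, as a description of clusters that share a library and an antibody stain.

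**Figure D4:**
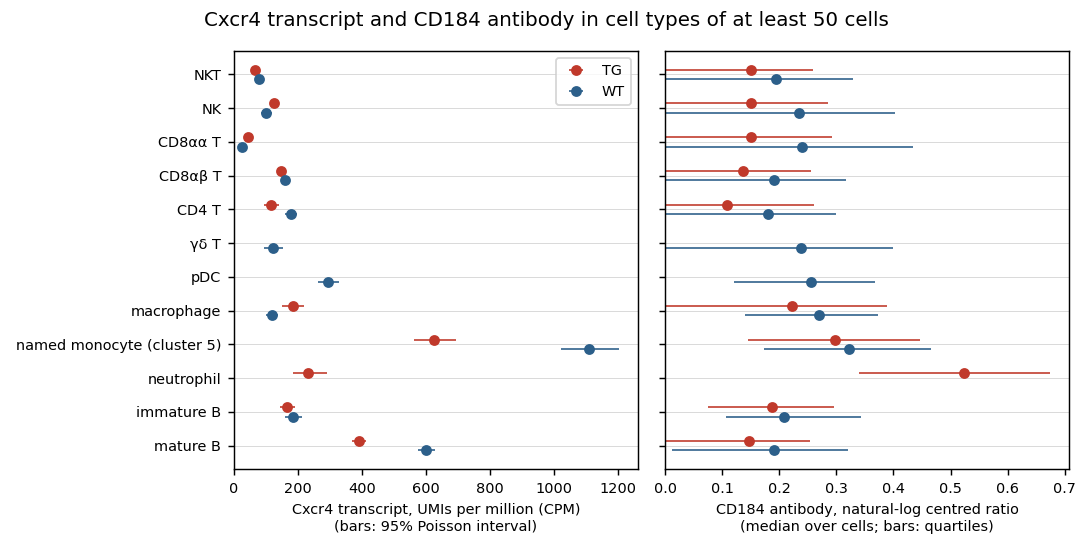
Transcript and protein of Cxcr4 by cell type. The left panel gives the Cxcr4 level in CPM with exact 95% Poisson intervals and the right panel the median centred log ratio of the CD184 antibody with its quartiles, red for TG and blue for WT, in sets of at least 50 cells. The transcript spans 23.6 to 1108 CPM in WT, while the protein medians of all sets but the TG neutrophils lie close together.

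Some cells held more than 1 receptor. At 1000 UMIs per cell, at least 2 of the 7 were found in 10.1% of all TG and 20% of all WT cells. The shares were higher in lymphocytes of the NKT and γδ classes, at 31.6% of TG and 38.1% of WT NKT cells and 29.4% of 17 TG and 46.9% of 192 WT γδ T cells. The share was 17.6% of TG and 7.77% of WT CD4 T cells, and the order was reversed in NK cells, at 3.69% and 12%. Whether receptors went together within a cell type was then read from the share of cells with one receptor among cells with and without another. Of 103 such comparisons with at least 20 cells in both sets, 10 had a higher and 4 a lower share with intervals that lay apart. With any other gene in place of the other receptor, 0.74% of comparisons were higher and 0.41% lower. Depth was equal in all cells of these comparisons, but each cell type pools its clusters. Cells of 1 library are not replicates and no test was made.

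In CD4 T cells Ccr2 went with Cxcr6 in both genotypes. Among cells with Cxcr6, Ccr2 was found in 39% (24.2 to 55.5, n = 41) in TG, against 12.7% (8.38 to 18.2, n = 197) of cells without it. In WT the shares were 31.8% (18.6 to 47.6, n = 44) and 9.57% (7.48 to 12, n = 690). Ccr2 also went with Cxcr3 in WT CD4 T cells, at 28.1% (17 to 41.5, n = 57) against 9.45% (7.36 to 11.9, n = 677), and Ccr6 was found in 11.2% (5.28 to 20.3, n = 80) of WT cells with Ccr2 against 3.52% (2.24 to 5.23, n = 654) of those without. Pooled over the CD4 clusters, Ccr2 was thus found more often with Cxcr6 and, in WT, with Cxcr3 and with Ccr6. WT cluster 6, which held the naive T cell genes, had little Ccr2, Cxcr6, Cxcr3 and Ccr6 (7.01, 5.01, 9.01 and 2 CPM). WT cluster 9 held 285, 237, 191 and 86.1 CPM of them. Shares within a cluster were not taken. In TG, Ccr2 was found in 26.7% (14.6 to 41.9, n = 45) of CD4 T cells with Cxcr3 against 15% (10.3 to 20.9, n = 193) of those without it, and these intervals overlapped. Cells of 2 lineages made up 32.4% of TG and 6.68% of WT CD4 T cells.

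In TG CD8αβ T cells, pooled over clusters, the receptors that went together were Cxcr3, Cxcr6 and Ccr9. Their highest TG levels among CD8αβ clusters were all in cluster 18 (491, 647 and 428 CPM). Cxcr6 was found in 45.5% (30.4 to 61.2, n = 44) of cells with Ccr9 against 7.99% (6.37 to 9.87, n = 976) of those without, and Ccr9 in 10.8% (6.01 to 17.4, n = 130) of cells with Cxcr3 against 3.37% (2.29 to 4.78, n = 890). In WT CD8αβ T cells the pair that stood apart was Cxcr6 and Ccr2, with Ccr2 in 14.9% (8.56 to 23.3, n = 101) of cells with Cxcr6 against 5.99% (4.37 to 7.98, n = 718). In WT NK cells Cxcr6 went with Cxcr3 (26.5% (18.2 to 36.1, n = 102) against 11.9% (9.22 to 15, n = 513)) and away from Cxcr4 (1.59% (0.0402 to 8.53, n = 63) against 15.8% (12.8 to 19.1, n = 552)). These NK shares pool clusters. WT cluster 3 held Cxcr6, Cxcr3 and Cxcr4 at 338, 315 and 22.8 CPM, and WT cluster 8 held them at 17.9, 73 and 190 CPM. In NKT cells no pair of receptors went together or apart. Cxcr6 was found in 48.6% (44.5 to 52.7, n = 597) of WT NKT cells with Cxcr3 and 47.7% (45.3 to 50.2, n = 1635) of those without, and all pairs in NKT cells overlapped.

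The surface proteins of the same cells showed on which cells the receptors were found. CD44, an adhesion molecule that is high on antigen-experienced T cells, was higher on WT CD4 T cells with a UMI of Cxcr3 (median centred log ratio 3.3 against 2.3 without one). The same held for Cxcr6 (3.38 against 2.31), Ccr2 (3.43 against 2.26) and Ccr6 (3.5 against 2.35), whereas cells with Cxcr4 had less CD44 (2.07 against 2.52). WT CD8αβ T cells repeated this for Cxcr3, Cxcr6, Ccr2 and Cxcr4, for example with 3.31 against 2.3 for Ccr2.

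Ccr9 marked different CD8αβ T cells in the 2 genotypes by protein as well. In TG, cells with Ccr9 carried more CD49a, the collagen-binding integrin of resident cells encoded by Itga1 (2.72 against 1.01), and in WT they did not (0.347 against 0.418). CD44 on cells with Ccr9 was 3.62 against 3.22 in TG and 1.44 against 2.59 in WT. Among NK cells Ccr2 lay on cells with less CD49a in both genotypes, at 0.862 against 3.17 in TG and 0.701 against 2.44 in WT. Cxcr6 and Cxcr3 lay on the opposite NK cells in WT, with CD49a at 3.31 against 1.02 for Cxcr6. These medians are given without a test.

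Of 16 other chemokine receptors 13 were in the table. In CD4 T cells 7 of them had at least 20 UMIs, and 3 were past 2-fold higher and 1 lower in TG, with a median log2 ratio of 0.73 against 0.08 over all genes, of which 8.63% were past 2-fold. In macrophages 0 were higher and 3 lower of 7 (all genes 9.13%), with the lowest median of the 9 cell types at -0.71, and CD4 T cells had the highest. Ccr7, the lymph node homing receptor of naive cells, had 52.1 CPM in TG against 166 CPM in WT (log2 ratio -1.67 (-2.16 to -1.21)). Cx3cr1, the fractalkine receptor of cytotoxic cells, differed widely in the cells named NK, at 528 CPM in TG against 33 CPM in WT (4.0 (3.60 to 4.42)). These cells sat in different clusters, since cluster 11, in which TG held Cd3e, had 343 TG and 22 WT cells and Cx3cr1 at 1030.4 and 432 CPM. In NK cluster 8, with little Cd3e, Cx3cr1 was 354 CPM in TG against 40 CPM in WT. In CD8αβ T cells it stood at 291 and 41.1 CPM (2.83 (2.56 to 3.10)). In the cells named NK Cxcr3, Cxcr6 and Ccr2 were lower in TG.

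Of 12 ligands of the 7 receptors 6 were in the table, and their levels in macrophages are given here. TG macrophages lay in clusters 15 and 22 (89 and 20 cells), while WT macrophages lay in clusters 15, 22 and 27 (158, 80 and 23 cells), and cells of 2 lineages made up 40.4% and 16.5% of them. Cxcl10, a CXCR3 ligand, stood at 57.2 CPM in TG against 216 CPM in WT (log2 ratio -1.92 (-2.47 to -1.41)), Cxcl9 at 83.3 and 141 CPM (-0.76 (-1.23 to -0.31)) and the CXCR6 ligand Cxcl16 at 26.1 and 57.2 CPM (-1.13 (-2.00 to -0.34)). The CXCR5 ligand Cxcl13 was held by WT macrophages at 244 CPM, in 13 WT cells in all, and had 0 UMIs in the TG cells in the library file as well. Ccl2, the CCR2 ligand, stood at 37.2 CPM in WT macrophages, and the library file held 3 UMIs of it in TG macrophages although the filtered table gives 0. The resident macrophage gene C1qa went with this difference, at 247 CPM in WT and 2 UMIs in all TG cells of the library file. The part of C1qa-bearing cells, of the clusters and of cells of 2 lineages in these differences was not tested. Ligands made by bile duct, endothelial or stromal cells were outside the reach of CD45+ cells.

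Of 19 signalling genes downstream of the receptors 17 were in the table, and most stayed within 2-fold. In mature B cells 1 was past 2-fold higher and 4 lower of 17 (all genes 4.69%), in CD8αβ T cells 1 higher and 3 lower of 17 (7.02%), and in macrophages and CD8αα T cells none of 16 and of 15 (9.13% and 7.77%). The median over the list lay between -0.20 in cluster 5 and 0.11 in NKT cells, beside medians over all genes of -0.08 to 0.08. Rgs1 and Rgs2 encode regulators of G protein signalling, which shorten receptor signals. Rgs1 stood at 549.9 CPM in TG against 1388 CPM in WT NK cells (log2 ratio -1.34 (-1.44 to -1.24)) but differed little in NKT cells (-0.02 (-0.13 to 0.08)), and Rgs2 at 276 and 662 CPM in mature B cells (-1.26 (-1.38 to -1.15)).

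The patterns of the receptors over cells were last compared with those of 4468 genes that passed 100 CPM somewhere, over 39 profiles of a cluster and a genotype with at least 50 cells. Among the receptors, Cxcr3 and Cxcr6 were most alike (Pearson r 0.74), followed by Cxcr5 and Ccr6 (0.56) and Cxcr6 and Ccr9 (0.55), and Cxcr4 ran against Cxcr3 (-0.66) and Cxcr6 (-0.64). The genes most like Cxcr3 were P2rx7, Cd226 and Abcb1a (each 0.81), and those most like Cxcr6 were Podnl1 (0.89), Rcbtb2 (0.87) and Gramd1b (0.82). Cxcr5 was most like Scd1 (0.93), Pou2af1 (0.92), a B cell coactivator, and Ms4a1 (0.91), which encodes CD20. Cxcr4 was most like Klf2 (0.81), a regulator of trafficking in resting lymphocytes, and Ssh2 (0.78). For Ccr6 the closest were Mif4gd (0.80), Blk (0.76), a B cell kinase, and Pxdc1 (0.74), for Ccr2 Coro1c (0.73), Usmg5 (0.71) and Pomp (0.66), and for Ccr9 Klk1b27 (0.65), Ubxn4 (0.63) and Selenos (0.62). These values describe profiles that share 2 libraries and carry no test.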

How the data were processed

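Reads were aligned by the authors to the mouse genome mm10 with STAR in the BD Rhapsody pipeline. The deposited tables hold UMI counts, corrected for sequencing errors by the pipeline, of 11929 cells, 13528 genes and 49 antibodies after a filter on cells that is not given in the sources used here. The deposited antibody values are the natural log of a count relative to the geometric mean of the cell, made by the authors in Seurat. Genotype, cell type and cluster of each cell were taken from the authors' cell table. In the filtered table, rare genes are set to 0 in a genotype, and 995 genes at 0 in all TG or all WT cells were left out of shares and lists over all genes. The 7 receptors were not affected, and 0 of their values differed from the library files.

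Here the UMIs of a cell set were added up for each genotype and scaled to CPM (Python 3.11.15, numpy 2.4.6, scipy 1.17.1, pandas 2.3.3, matplotlib 3.10.9). Ratios were counted with at least 20 UMIs over both genotypes, in cell types with at least 50 cells of each. Shares of cells were also taken after thinning each cell to 1000 UMIs (seed 1), and all cells held at least that many. Likeness of genes is the Pearson r of log2(CPM + 10). No test was made, each genotype being 1 library. The named genes were the 7 receptors, other chemokine receptors, ligands and signalling genes of set lists and the 3 genes most like each receptor. A few genes that this rule or the marker lists name are not reported here. The members and lists were chosen with earlier results of these data known. Alternatives were TMM scaling (edgeR 4.0.16, R 4.3.3), equal weight per cell, totals that leave out ribosomal and mitochondrial genes, equal cluster weights, thinning, the library files and leaving out cells of 2 lineages. The code for ratios and intervals was checked on simulated Poisson counts of genes with many UMIs. The intervals assume that law, so the check does not cover UMIs clumped in a few cells. Promoters are from RefSeq and gene positions from GENCODE.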

Additional observations from a re-analysis of the deposited data

Results flagged for a closer look

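For 3 receptors the ratio of TG over WT was past 2-fold higher in at least 1 cell type and past 2-fold lower in another. The share of all genes that do so was not counted, so this number cannot be set against genes in general. These differences between cell types were not tested, since each genotype was 1 library. Cxcr3 had a log2 ratio of 1.2 in CD4 T cells but -2.31 in cluster 5 and -1.06 in mature B cells, which became -0.55 and -0.26 without cells of 2 lineages, while the CD4 value was 0.65 with equal cluster weights. Cxcr6 had 1.13 in CD4 T cells but -2.52 in cluster 5, -1.88 in mature B cells and -1.63 in the cells named NK. Without cells of 2 lineages the cluster 5 and mature B values were 0.03 and 0.32, so that of these only the NK value stayed opposite in sign, at -1.62. Ccr9 had 2.03 in CD4 T cells and 1.70 in CD8αα T cells but -1.88 in macrophages and -2.47 in cluster 10. At 1000 UMIs per cell the macrophage ratio was -0.06 and the CD8αα ratio 0.66, while without cells of 2 lineages the macrophage and cluster 10 ratios were -3.33 and -3.47. In cluster 5, mature B cells, macrophages and cluster 10 these receptors stayed under 100 CPM in both genotypes, and cells with markers of 2 lineages were more frequent in TG than in WT in each of these sets. The part of those cells in the ratios was not tested beyond leaving them out.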

How the results depend on the processing

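The TG over WT ratio of each receptor in the cell type in which it led stayed within its interval in 48 of 49 alternative values, the exception being Ccr2 in macrophages at -0.24 with equal weight per cell, against -0.01. In the other cell types 255 alternative values stayed within the interval, 40 left it and 3 changed sign. Changes of sign were counted apart only for ratios past 2-fold. Alternative values without a UMI in TG, and Ccr6 in CD4 T cells, gave no finite ratio and were left out. Some of the counted values could not move. The library files hold the same receptor counts, and equal cluster weights change nothing in a type made of a single cluster, such as cluster 5 or cluster 10. Without cells of 2 lineages Cxcr6 was at 0.032 in cluster 5 (14 UMIs) and 0.32 in mature B cells (28 UMIs), while with cells thinned to 1000 UMIs Ccr2 was at 0.066 in cluster 10 (2 UMIs). The cause was not tested. The count of 17 of 51 pairs past 2-fold became 10 of 42 without cells of 2 lineages (5 higher and 5 lower in TG), 6 of 33 thinned to 1000 UMIs, 11 of 42 with at least 50 UMIs and 4 of 26 among pairs past 100 CPM, the last a choice made after seeing the data. Each of these settings leaves fewer pairs to count. The share over all genes was counted anew only for pairs past 100 CPM (3.27%). At their own depth instead of 1000 UMIs, 24 co-detection comparisons were higher and 8 lower. With Spearman's rho, 10 of the 21 genes most like a receptor remained among the 3 most alike. None of the genes given for Ccr6 or for Ccr9 did, and the gene closest to Ccr9 became Cxcr6 (0.69). The cell type in which each receptor led was the same for 7 of 7 receptors under all 3 alternatives. No paired analysis was possible because each genotype was 1 library and no result comes from a test. Depth limits the low pairs most, since at 20 UMIs an interval spans several fold, and 3 cells gave 50% of the Ccr9 UMIs of WT macrophages.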

Other observations

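Basophils were too few for the comparisons above (45 TG and 16 WT cells), yet they held some of the highest levels of a pair of the receptors. Ccr2 stood at 362 CPM (274 to 469.6) in TG and 485 CPM (300.5 to 742) in WT basophils, and Cxcr4 at 318 CPM (236 to 419) and 601 CPM (393 to 881). Their intervals overlapped between genotypes for Ccr2 and for Cxcr4. pDC carried Cxcr3 next to Ccr9, at 143 CPM (102 to 194) in TG and 125 CPM (104 to 148) in WT, and Ccr2 at 157 CPM (114 to 210.5) and 214 CPM (187 to 244). At 1000 UMIs per cell, at least 2 of the 7 receptors were found in 26.1% of TG and 40.2% of WT pDC.

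The smaller NKT clusters were read mainly in WT, since each held at most 23 TG cells. WT cluster 19 (127 cells) held Cxcr3 at 115 CPM and Ccr2 at 171 CPM, below the 318 and 418 CPM of NKT cluster 0, and Cxcr6 at 649.6 against 724 CPM. WT cluster 20 (119 cells) lay nearer to cluster 0, with Cxcr3 at 292, Ccr2 at 367 and Cxcr6 at 583 CPM. In TG, Cxcr6 was 290.3 CPM in cluster 19 against 641 CPM in cluster 0. CD8αβ cluster 23, with 76 WT cells, held Cxcr6 at 473 CPM (396 to 559), the second level among WT CD8αβ clusters after cluster 18.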
